A study of Mus musculus with 18 samples.

Results

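The comparison described here is the response of wild-type (WT) mouse macrophages to 2 h of lipopolysaccharide (LPS), read as mRNA across all expressed genes. It was made between 3 libraries of WT cells given LPS and 3 libraries of unstimulated WT cells, chosen by their labels from the 18 libraries of the series. The question it addresses is which transcription factor families and which pathways rise or fall, beyond the cytokine and interferon genes.

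The cells were bone marrow-derived macrophages (BMDMs), grown from mouse bone marrow with recombinant GM-CSF over 8 days. The stimulated group had a pretreatment of 1 h with the vehicle DMSO and then LPS at 100 ng/ml for 2 h. The unstimulated group carries the label of DMSO treatment at 0 h, and its columns in the table are headed as untreated. The other 12 libraries, from IRF5 knockout BMDMs and from BMDMs given the FAK and PYK2 inhibitor defactinib (3.5 μM), entered the model to estimate the spread between replicates. BMDMs grown with GM-CSF are a mixed culture of macrophages and dendritic-like cells. The replicates are described as biological, with no statement of whether they came from separate mice. In such bulk samples, fewer cells of a type and less RNA per cell cannot be told apart.

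LPS, a component of the outer membrane of Gram-negative bacteria, is bound by CD14 and MD-2 and sensed by TLR4. The receptor signals through the adaptors MyD88 and TRIF to the IκB kinases, which release NF-κB from its IκB inhibitors, to the MAP kinases, and to IRF3, which drives interferon-β. Secreted cytokines and interferon-β then act back on the same cells through JAK kinases and STAT factors. Many of the earliest targets are themselves inhibitors of these steps, so that an early profile holds activators and brakes side by side.

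The promoters of several genes that rose hold matches to the motifs these factors are known to bind, and a few are shown as examples. The sequences were read from RefSeq promoters of build GRCm38.p6 and give the 130 bases before the annotated start, 5′ to 3′ on the strand of the gene. In the first 6, capitals mark matches to the NF-κB decamer consensus on either strand. They belong to Nfkbia and Nfkbie (2 IκB inhibitors), Nfkb2 and Rel (2 NF-κB subunits), Tnfaip3 (the deubiquitinase A20, a brake on NF-κB) and Irf1 (an interferon regulatory factor). In the last 2, capitals mark matches to GAAANNGAA, the core of the interferon-stimulated response element (ISRE), which lies in reverse in both. They belong to Ifit1, an antiviral RNA-binding protein, and Trim30a, a TRIM ubiquitin ligase.
Nfkbia, chr12:55492648-55492777, minus strand: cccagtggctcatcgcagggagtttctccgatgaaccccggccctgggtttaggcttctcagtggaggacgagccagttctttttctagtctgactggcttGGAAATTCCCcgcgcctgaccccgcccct
Nfkbie, chr17:45555570-45555699, plus strand: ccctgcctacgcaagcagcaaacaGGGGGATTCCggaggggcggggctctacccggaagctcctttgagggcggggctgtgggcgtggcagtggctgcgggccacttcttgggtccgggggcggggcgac
Nfkb2, chr19:46304607-46304736, plus strand: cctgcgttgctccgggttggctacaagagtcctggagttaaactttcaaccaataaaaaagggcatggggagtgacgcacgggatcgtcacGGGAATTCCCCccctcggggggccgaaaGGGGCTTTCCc
Rel, chr11:23770970-23771099, minus strand: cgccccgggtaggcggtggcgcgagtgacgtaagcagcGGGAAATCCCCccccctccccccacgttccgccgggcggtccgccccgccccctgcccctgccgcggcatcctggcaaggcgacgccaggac
Tnfaip3, chr10:19015411-19015540, minus strand: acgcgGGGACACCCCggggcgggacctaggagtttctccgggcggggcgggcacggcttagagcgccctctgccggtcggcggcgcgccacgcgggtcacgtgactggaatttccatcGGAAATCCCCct
Irf1, chr11:53769884-53770013, plus strand: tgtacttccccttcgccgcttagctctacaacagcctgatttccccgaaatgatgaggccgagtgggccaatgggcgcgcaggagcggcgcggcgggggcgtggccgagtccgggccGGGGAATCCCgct
Ifit1, chr19:34640759-34640888, plus strand: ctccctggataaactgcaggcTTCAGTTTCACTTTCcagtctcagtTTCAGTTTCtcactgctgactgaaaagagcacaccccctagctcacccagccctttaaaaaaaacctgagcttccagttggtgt
Trim30a, chr7:104465194-104465323, minus strand: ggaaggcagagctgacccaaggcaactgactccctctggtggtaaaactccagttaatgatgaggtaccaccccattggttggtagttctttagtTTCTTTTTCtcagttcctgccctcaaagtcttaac

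Over all promoters in the RefSeq table, the NF-κB consensus had a match in 8.46% of the 300-base windows (250 bases before to 50 after the start). Among promoters of genes called higher after LPS it had a match in 14.7% (229 of 1563), against 9.17% (137 of 1494) for genes called lower and 10% (1052 of 10486) for genes tested and not called. The ISRE core was matched in 13.1% of promoters of higher genes, 5.62% of promoters of lower genes and 7.03% of the rest, against 8.56% over all promoters. Genes with several promoters enter once for each, so that the 1563 promoters belong to 1212 genes and the 213 below to 177. In the 213 promoters of genes called higher by over 16-fold, the ISRE core reached 25.4%, the NF-κB consensus 16.4% and the AP-1 site TGANTCA 15.5%. The AP-1 site was matched in 7.61% of promoters of all higher genes, 5.09% of lower, 5.15% of genes not called and 7.81% of all promoters. A TATAAA box between 45 and 11 bases before the start was found in 6.57% of these 213 promoters and in 1.08% of promoters of genes not called, and in 2.22% of all promoters. The E-box CACGTG was matched in 6.1% of the 213 promoters, 8.06% of all higher, 10.9% of lower, 9.72% of genes not called and 7.15% of all promoters. The cAMP response element TGACGTCA was matched in 2.37% of promoters of higher genes, 2.61% of lower, 2.96% of the rest and 1.79% of all promoters. The EGR site GCGTGGGCG was matched in 1.41%, 1.27%, 1.15% and 0.612% in the same order. No spelled motif contains another, both strands were read for all but the TATA box, and a match is a description of letters and not of binding.

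**Figure D1:**
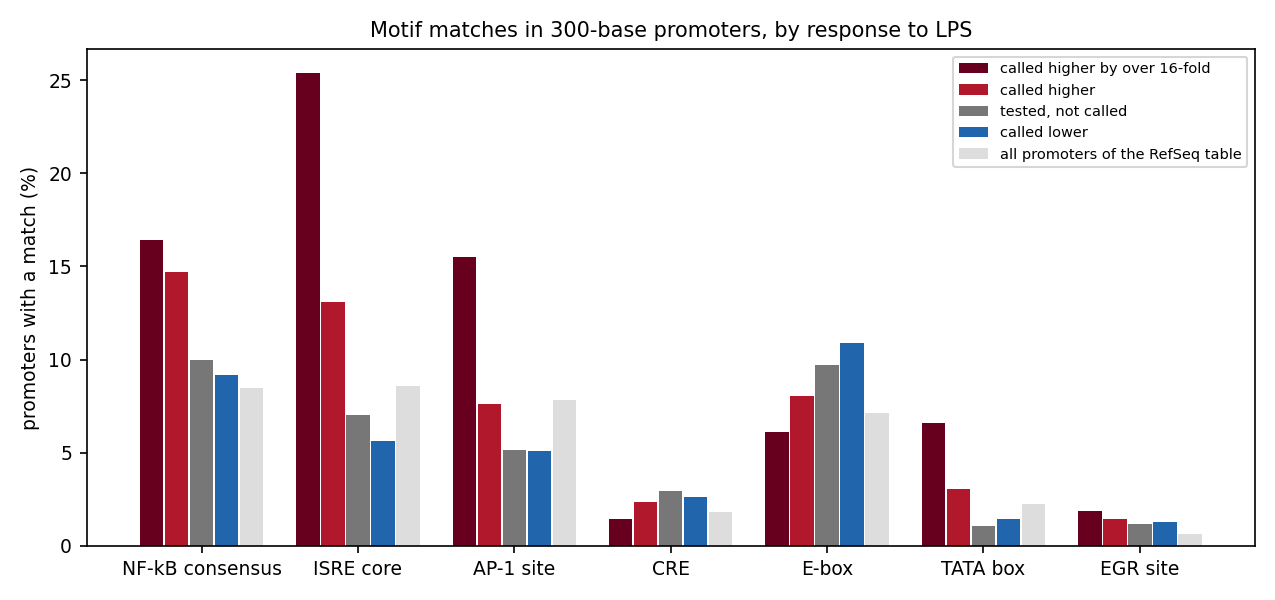
Share of 300-base RefSeq promoters with at least 1 match to each motif (y axis, %), for genes called higher by over 16-fold, all genes called higher, genes tested and not called, genes called lower, and all promoters of the table. The ISRE core reaches 25.4% in the most strongly raised genes and 5.62% in the lowered genes, while the E-box is most frequent in the lowered genes (10.9%).

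Base composition of the promoters differed as well. The CpG ratio, the number of CG pairs over that predicted from the C and G content, had a median of 0.35 for promoters of genes raised over 16-fold, 0.60 for all higher genes, 0.71 for lower genes and 0.75 for genes not called, and of 0.38 over all promoters of the table. A ratio over 0.6, a mark of CpG islands, was found in 27.7%, 50.8%, 62.3% and 68.2% of them, and in 35.8% of all promoters. For the most strongly raised protein-coding genes the median span on the genome was 13.6 kb (213 genes), against 30 kb for the 1259 raised by 2 to 16-fold, 23.6 kb for the 1353 lowered and 22.4 kb for the 9919 not called. Their annotated transcript with the most exons had a median of 6, as it did for genes lowered over 4-fold, against 9 for genes not called. The groups also differed in level before LPS, in counts scaled to library size (CPM). The median was 0.102 CPM for protein-coding genes raised over 16-fold and 14.1 CPM for those raised by 2 to 16-fold. It was 9.31 CPM for lowered genes and 22.2 CPM for genes not called. Whether the differences in motifs, CpG ratio, span and exons go with this level or with the LPS response was not tested. The AU-rich element ATTTATTTA, a signal for rapid decay, occurred in the 3′ untranslated region of 7.99% of higher, 5.47% of lower and 5.22% of uncalled protein-coding genes. Among higher genes the share was 7.77% for those raised over 16-fold (16 of 206) and 8.03% for those raised by 2 to 16-fold. Their 3′ regions differed in length, with medians of 769 and 1218 bases against 870 for uncalled genes, and the element occurred 0.126, 0.0625 and 0.0494 times per kilobase in the same order.

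In all, 15663 genes were tested and 3340 of them (21.3%) were called, with an adjusted p below 0.05 in edgeR's quasi-likelihood test and a change of over 2-fold. Of these, 1819 (11.6%) were higher and 1521 (9.71%) lower after LPS. The lowest LPS library stood above the highest unstimulated library, or the reverse, for 3317 of the called genes, and 23 overlapped. Called genes were selected for a difference between the groups, so this count is not separate evidence for the calls. Large changes were mostly rises, with 270 genes higher and 32 lower by over 16-fold, and 931 higher and 382 lower by over 4-fold. Of the raised genes, 710 averaged below 1 CPM (the count scaled to the size of the library) before LPS, and 37 had no count in the 3 unstimulated libraries. Of the lowered genes, 489 averaged below 1 CPM after LPS and 4 had no count. Noncoding genes took part, with 69 higher and 42 lower of 391 tested lincRNA genes, and 67 higher and 35 lower of 423 antisense genes.

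The raised genes took 6.53% to 6.63% of all counted read pairs before LPS and 22.4% to 24.3% after. The lowered genes went from between 4.38% and 4.58% to between 1.15% and 1.24%. With the TMM factors used here 54.5% of the calls were rises, and the median gene did not move (0.00). Scaled by library size alone, the median gene fell by 0.38 on the log2 scale, 1295 genes were called higher and 2834 lower, and rises were 31.4% of the calls. Shifts of a list median smaller than that are therefore not described as directions below.

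The 6 libraries held 44974070 to 53107546 counted pairs. WT unstimulated replicate 3 differed from replicates 1 and 2 in Gm42418, a transcript that overlaps ribosomal RNA, which was at 1652, 1998 and 13370 CPM in the 3 unstimulated libraries and at 4838, 4043 and 5407 CPM after LPS. A mean chi-square per gene between libraries was taken over genes above a minimum count in each pair, where sampling noise alone gives about 1. It was 3.82 for WT unstimulated replicates 1 and 2, and 55.2 and 52.4 for replicate 3 with each of them. The 3 pairs of WT LPS DMSO libraries gave 31.3, 25 and 29. As a mean, it can be carried by a few genes of high count. Other genes moved with this library: without it the log2 change of Lars2, a mitochondrial leucyl-tRNA synthetase, went from an uncalled 0.46 to a called 1.61, and that of the antisense RNA Kcnq1ot1 from a called -1.18 to an uncalled -0.50. Leaving that library out gave 1738 higher and 1439 lower genes. IRF5 KO LPS DMSO replicate 3, which entered the fit but not the comparison, stood apart from its group. Without it 3699 genes were called, and 3336 of the 3340 remained with the same sign. Of 10 macrophage markers 1 rose (Mertk, by 1.18 on the log2 scale, a call lost under library size scaling) and 1 fell, and Lyz2 and Itgam did not pass. Of 9 tested dendritic cell markers Ccr7 and Flt3 rose, by 3.11 and 2.02, and Itgax did not pass. T, B and NK cell markers were near the floor, with 11 of 15 too low to test. Of 10 tested neutrophil markers 6 were higher, 3 of 10 under library size scaling, and their summed level was 253 to 267 CPM before and 331 to 425 CPM after. S100a8, a calcium-binding alarmin, was at 24.4, 23.6 and 31.8 CPM before LPS and at 46.4, 51.5 and 88.2 CPM after. Its call was lost under library size scaling (log2 change 0.84) and without WT LPS DMSO replicate 3 (0.88), as was that of Ly6g without the same library (1.79 to 0.95). The granule enzyme genes Elane and Prtn3 stayed below 0.3 CPM in every library. The part of neutrophil-like cells in the other results was not tested.

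The lists of transcription factors held 929 genes, of which 708 were tested, 97 (13.7%) rose and 115 (16.2%) fell. The largest group among them, the numbered zinc finger genes, held 332 of the tested genes, with 16 higher and 48 lower and a median log2 change of -0.38. Scaled by library size alone, 7 were higher and 88 lower. Without them, 81 of 376 (21.5%) rose and 67 (17.8%) fell, both above the shares of all tested genes. Families differed widely in direction.

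**Figure D2:**
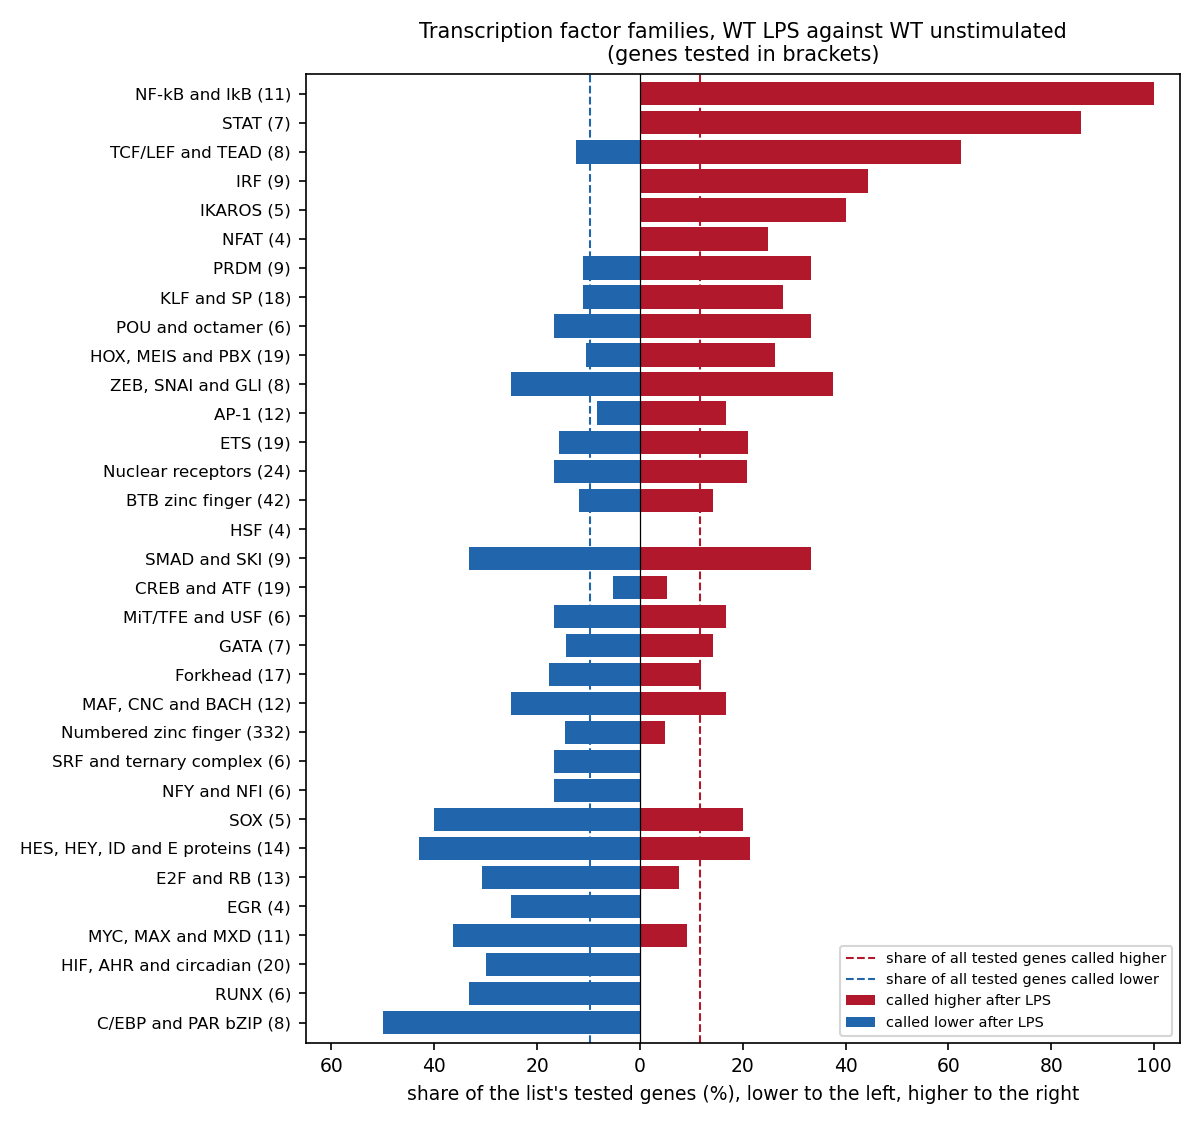
Share of each transcription factor family's tested genes called higher (red, to the right) or lower (blue, to the left) after LPS, in percent, for families with at least 4 tested genes (number in brackets), with the shares over all tested genes as dashed lines (11.6% and 9.71%). All 11 NF-κB and IκB genes were called higher, and C/EBP and PAR bZIP genes were called only lower (4 of 8).

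NF-κB and its inhibitors are given whole. All 11 tested members rose, with a median log2 change of 2.03 against 0.00 over all genes. All 11 had 3 LPS libraries above the 3 unstimulated libraries, but the groups also separated for 3317 of the 3340 called genes. Scaled by library size alone, 8 of the 11 still passed and the median was 1.65. Nfkbiz, which encodes the atypical nuclear cofactor IκBζ, had the steepest rise. It was at 2.21, 2.65 and 3.55 CPM in unstimulated cells and at 706, 715 and 719 CPM after LPS, a log2 change of 7.99 (SE 0.62, adjusted p = 1.5e-07). Every LPS library lay within a narrow band far above the unstimulated ones.

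The inhibitor Nfkbia (IκBα), which pulls NF-κB out of the nucleus, went from 124, 125 and 124 CPM to 896, 868 and 839 CPM, a log2 change of 2.80 (SE 0.23). The other inhibitors rose by less: Nfkbib by 2.06, Nfkbid (the nuclear IκBNS) by 2.55 and Nfkbie (IκBε) by 1.33 on the log2 scale. Nfkbie had the widest error of these (SE 0.46, adjusted p = 0.0293). Of the DNA-binding subunits, Rel (c-Rel) went from 92.8, 86.9 and 96.8 CPM to 515, 561 and 557 CPM. Its log2 change of 2.56 (SE 0.27) was above those of Nfkb2 (2.03, SE 0.21), Nfkb1 (1.85, SE 0.18), Relb (1.32, SE 0.19) and Rela (1.21, SE 0.19). Rela, the subunit with the strongest activation domain, thus had the smallest change of the family in these libraries, from 76.2, 79 and 85.7 CPM to 177, 192 and 188 CPM. Bcl3, a coactivator of p50 and p52, rose by 1.97 (SE 0.38).

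Per kilobase of exon, the order of levels within the family changed. In unstimulated cells Nfkbia had the highest level, 77.3 CPM per kb, followed by Nfkbie at 67.9, and Nfkbiz the lowest at 0.559. After LPS, Nfkbia was at 539 CPM per kb, Nfkb2 at 178, Nfkbie at 171 and Nfkbiz at 142, so that Nfkbiz passed from last place to near Nfkbie.

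**Figure D3:**
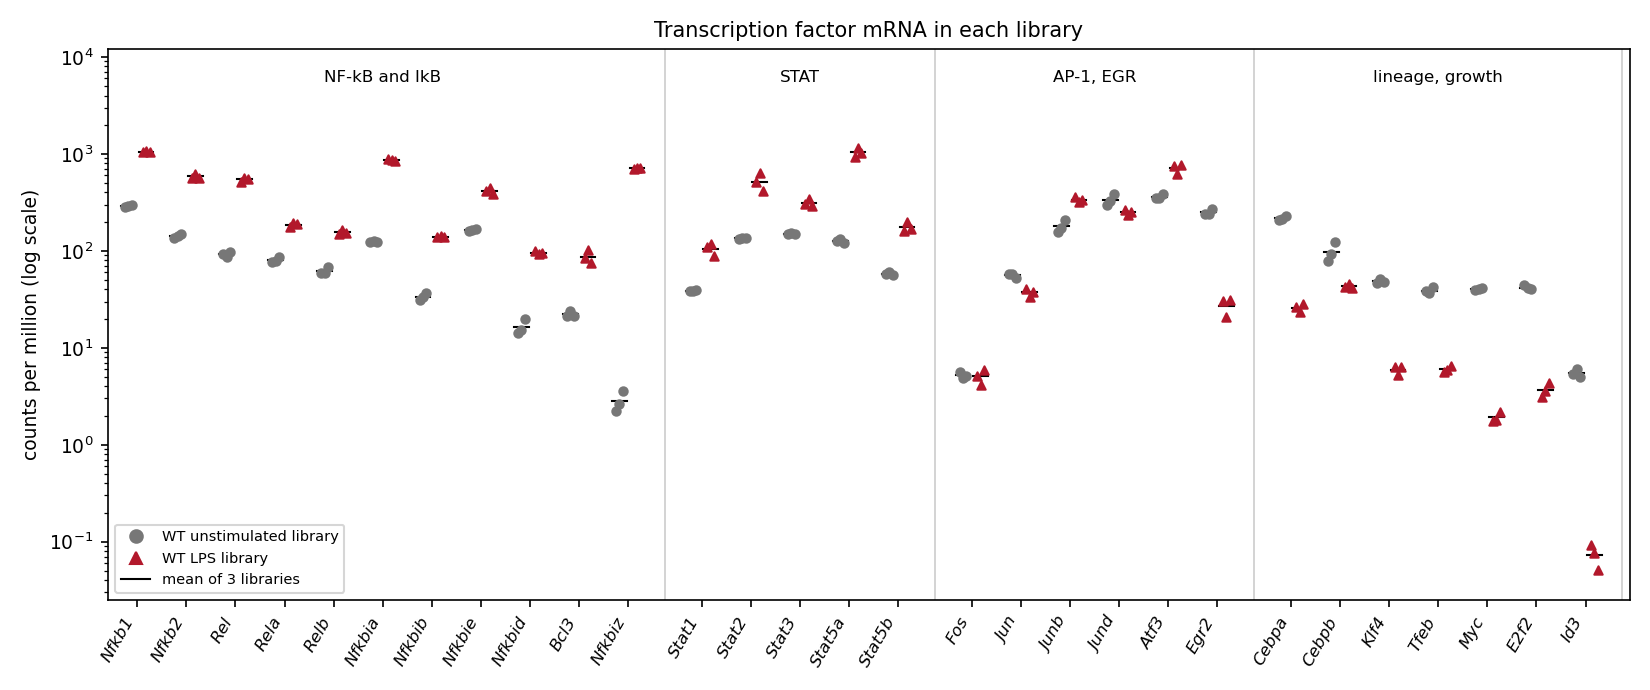
Level of transcription factor mRNA in each library (y axis, CPM on a log scale): grey circles are the 3 WT unstimulated libraries, red triangles the 3 WT LPS libraries and black lines their means. The 11 NF-κB and IκB genes and the STAT genes shown rise, the AP-1 genes Fos and Jun did not pass the test, and lineage and growth factors such as Cebpa, Klf4 and Myc fall.

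The STAT family, which carries cytokine and interferon signals to the nucleus, rose almost as a whole. Of 7 tested genes 6 were higher, the median log2 change was 1.59, and 5 passed under library size scaling. Stat5a, which acts downstream of GM-CSF and other cytokines, went from 125, 131 and 121 CPM to 939, 1161 and 1018 CPM (log2 change 3.05, SE 0.30, adjusted p = 1.41e-06). Its neighbour Stat5b rose by 1.59 (SE 0.17), from 57.8, 60.9 and 56.3 CPM to 159.9, 198 and 168 CPM. Stat4, the mediator of IL-12 signals, rose by 2.48 from a low level of 1.74 to 2 CPM. Stat2, a subunit of the interferon-activated complex ISGF3, was at 508, 631 and 415 CPM after LPS against 131, 135 and 136 CPM before. Stat6, which serves IL-4, was at 191 to 198 CPM before and 251 to 274 CPM after, a log2 change of 0.42 below the 2-fold limit.

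Of 9 interferon regulatory factors, 4 rose and none fell. Irf1 went from 32.8, 32.8 and 29.8 CPM to 543, 622 and 569.9 CPM, a log2 change of 4.18 (SE 0.43, adjusted p = 2.23e-06). Irf8, a partner of PU.1 in myeloid cells, rose by 3.24 (SE 0.69) to between 518 and 661 CPM. Irf7 rose by 3.79 with a wide error (SE 1.21, adjusted p = 0.0194), and Irf9 by 1.62 (SE 0.60, adjusted p = 0.0425). The call of Irf7 was lost when any single unstimulated library was left out, and that of Irf9 when any library of either compared group was left out. Irf5, the factor the study is about, was at 587, 606 and 650.3 CPM before and 434, 475 and 443 CPM after LPS, a log2 change of -0.45 that did not reach 2-fold. Ptk2b, which encodes PYK2, the kinase that defactinib inhibits with FAK, was at 161 to 178 CPM before and 162 to 172 CPM after.

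The AP-1 and EGR families include immediate-early factors, which respond to stimuli without new protein synthesis. Of 12 AP-1 genes, 2 rose (Jdp2 and Batf2) and 1 fell (Fosl1). Jdp2, a repressor of AP-1, went from 5.02, 4.96 and 6.23 CPM to 29.1, 32.9 and 35.9 CPM (log2 change 2.60, SE 0.47). Atf3, a stress-induced brake on TLR genes, was at 352, 349 and 384 CPM before and 755, 626 and 762 CPM after. The log2 change of Atf3, 0.98 (SE 0.14), fell just short of 2-fold. It passed with DESeq2 (1.02), and in edgeR with DESeq2 size factors (1.02), without WT LPS DMSO replicate 2 (1.06) or without WT unstimulated replicate 3 (1.02). Fos, named after its values were seen, was at 5.66, 4.94 and 5.16 CPM before and 5.1, 4.17 and 5.92 CPM after, with overlapping groups. Egr2, a zinc finger factor of growth and tolerance responses, fell from 237, 239 and 270.5 CPM to 30.1, 20.9 and 30.8 CPM, a log2 change of -3.19 (SE 0.17, adjusted p = 2.24e-09). It was the only EGR gene called of 4, in a range of -3.19 to 2.87, and Egr1 did not pass at -0.77. Nr4a3, an orphan nuclear receptor induced early by many stimuli, rose from 176, 173 and 177 CPM to 1362, 1465 and 1459 CPM.

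None of 8 C/EBP and PAR bZIP genes rose and 4 fell, with a median of -0.69 and a highest value of 0.96. The falls were Cebpa, Cebpb and the PAR bZIP genes Dbp (log2 change -1.99) and Tef (-1.09). Cebpa, a master factor of the myeloid lineage, went from 208, 215 and 228 CPM to 26.2, 23.4 and 28.1 CPM (log2 change -3.07, SE 0.63, adjusted p = 0.00109). Klf4, a factor of monocyte differentiation, went from 47, 50.9 and 47.3 CPM to 6.28, 5.27 and 6.33 CPM (log2 change -3.02, SE 0.30). Cebpb, a factor of inflammatory genes, fell by 1.18, and its call was lost without WT unstimulated replicate 3, where it was highest (124 CPM against 77.9 and 91.8 CPM). Spi1 (PU.1) was at 438 to 490.3 CPM before and 241 to 299 CPM after, a log2 change of -0.78. Runx1, a factor of blood cell development, and the corepressor Cbfa2t3 had log2 changes of -1.81 and -2.58.

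Myc, which drives growth and ribosome production, went from 39.1, 40.4 and 41.6 CPM to 1.74, 1.82 and 2.19 CPM, a log2 change of -4.40 (SE 0.41, adjusted p = 6.53e-07). Mxd1, which competes with Myc for its partner Max, rose from 20, 19.4 and 20.5 CPM to 102, 112 and 99.2 CPM. Over the whole group of Myc, Max and Mxd genes, 1 rose and 4 fell of 11. E2f2, a factor of S-phase entry, fell from 44.1, 41.5 and 40 CPM to 3.08, 3.56 and 4.32 CPM, and 4 of 13 E2F and RB genes fell with 1 rise. Foxo3, which opposes growth factor signals, fell by 2.17 (SE 0.28), while Foxp1, a forkhead repressor of monocyte maturation, rose by 2.69 (SE 0.20).

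The HES and ID families are helix-loop-helix repressors. Hes1, a target and effector of Notch, was at 0.599, 0.693 and 0.598 CPM before LPS and had no count in the 3 LPS libraries. Set against a floor of 3 counts per library, it was at least 8.49-fold lower. Id3, an inhibitor of E proteins, fell from 5.36, 6.09 and 5.03 CPM to 0.0928, 0.0767 and 0.0508 CPM, a log2 change of -6.17 (SE 0.31, adjusted p = 1.28e-09). In the list that joins them with the HEY genes and E proteins, 6 of 14 fell and 3 rose, the rises being Hes7, the blood cell factor Tal1 and the E protein Tcf4. The related Id2 and the Notch factor Rbpj did not pass, at log2 changes of 0.25 and 0.03. Of the 20 genes of the HIF, AHR and circadian list none rose and 6 fell, among them the AHR repressor Ahrr (log2 change -2.10, SE 0.20). Hif1a itself was at 153 to 169 CPM before and 264 to 349 CPM after, a log2 change of 0.86.

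Other families were split. Of 24 tested nuclear receptor genes 5 rose and 4 fell, or 3 and 7 when scaled by library size alone. The receptors for vitamin D and retinoic acid fell, with log2 changes of -1.89 (SE 0.19) for Vdr, -1.74 (SE 0.38) for Rara and -1.51 (SE 0.18) for their partner Rxra. The glucocorticoid receptor Nr3c1 rose by 1.15 (SE 0.18), a call lost under library size scaling. Of the lysosome-related MiT factors, Tfeb fell from 38.5, 36.3 and 41.9 CPM to 5.57, 5.96 and 6.48 CPM while Mitf rose from 92.2, 89.6 and 93.6 CPM to 366, 355 and 403 CPM. Within the KLF and SP family 5 rose and 2 fell of 18 (4 and 4 under library size scaling), with Klf5 up from below 1 CPM and Klf4 down. Among regulators of TGF-β signals, the corepressor Skil rose by 1.98 (SE 0.20), while the inhibitory Smad7 fell from 6.8, 9.37 and 8.89 CPM to 2.94, 3.48 and 2.44 CPM and Ski had a log2 change of -1.20 (SE 0.11). Ikzf4 (Eos) rose by 2.78 (SE 0.63) and Zeb2, a factor of myeloid identity, by 1.63 (SE 0.16). The zinc finger gene Zfp652 was the numbered member with the largest fall among those above 2 CPM, from 63.8, 63.3 and 55.7 CPM to 6.01, 8.31 and 6.76 CPM.

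Of 42 histone methyltransferase genes 2 rose and 6 fell (1 and 10 under library size scaling), among the falls Smyd4 (log2 change -2.35) and Setd7 (-1.54). Setdb2, a histone H3 lysine 9 methyltransferase, rose from 14, 14.3 and 14.4 CPM to 106, 109.6 and 102 CPM, a log2 change of 2.89 (SE 0.24). Kdm6b, a demethylase of histone H3 lysine 27, rose by 1.10 (SE 0.24), a call lost under library size scaling. Of 26 histone demethylase genes 3 rose and none fell, and under library size scaling none rose and 5 fell. The share that rose, 11.5%, was near the 11.6% of all tested genes. The acetyl-lysine reader Brd2 rose by 1.39 (SE 0.10) and the elongation factor Ell2 by 1.89 (SE 0.27). Of 29 SWI/SNF and BET genes 5 (17.2%) rose and none fell (3 and 3 under library size scaling). Of 28 elongation genes 2 (7.14%) rose and 1 fell (1 and 3 under library size scaling). Of 29 histone deacetylase and acetyltransferase genes 2 rose and 6 fell (1 and 11 under library size scaling), including the deacetylase Hdac5 (log2 change -1.38, SE 0.14). None of 4 heat shock factors or 2 SREBP genes was called by edgeR, DESeq2 or limma-voom, with 2 and 0 of them at an unadjusted p below 0.05.

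Of 26 tested feedback regulators of NF-κB and cytokine signals, 9 rose and 4 fell, a balance that turned to 5 and 6 under library size scaling. Peli1, a ubiquitin ligase that acts with IRAK kinases, went from 22.8, 22.4 and 22.2 CPM to 417, 463 and 448 CPM, a log2 change of 4.30 (SE 0.14, adjusted p = 4.66e-12). Tnfaip3 (A20) went from 69, 71.1 and 75.6 CPM to 925, 981 and 1014 CPM, and Socs3, the brake on IL-6 receptor signals, from 82.5, 84.2 and 93.2 CPM to 599.5, 576 and 544 CPM. Tifab, an inhibitor of the TRAF6 adaptor TIFA, went the other way, from 197, 200.1 and 178 CPM to 21.7, 18.9 and 18.4 CPM. Of 22 genes of the TLR4 complex and its adaptors 5 rose and 1 fell (2 and 2 under library size scaling). Cd14 rose from 62.6, 60.4 and 64.1 CPM to 468, 372 and 326 CPM, and the IκB kinase Ikbke by 1.87 (SE 0.34).

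In the MAP kinase branch, the dual-specificity phosphatase Dusp14 rose from 0.206, 0.0507 and 0.103 CPM to 25.1, 19.2 and 24.1 CPM (log2 change 7.56, SE 0.46), and Dusp16, which acts on JNK, by 2.39 on the log2 scale (SE 0.22). Dusp7, on ERK, had a log2 change of -1.64, a call lost when any library of either compared group was left out. Over 19 phosphatase and Sprouty genes 6 rose and 3 fell. Upstream, Map3k8 (TPL2, the activator of ERK freed with p105) rose by 3.40 (SE 0.15) from 9.94, 9.12 and 10.4 CPM to 100.3, 109 and 102 CPM. Mapkapk2, the p38 effector that stabilises cytokine mRNAs, rose by 1.41 (SE 0.09), and Map3k4 fell by 2.86 (SE 0.15). Over 36 genes of the MAP kinase cascade 6 (16.7%) rose and 4 (11.1%) fell, against 11.6% and 9.71% of all tested genes. Under library size scaling 3 rose and 7 fell. Among regulators of mRNA decay, Zc3h12a (Regnase-1) rose from 23, 24.2 and 32 CPM to 296, 283 and 310.5 CPM, while the AU-rich element binding proteins Zfp36l1 and Zfp36l2 had log2 changes of -1.74 (SE 0.15) and -1.97 (SE 0.27). Their relative Zfp36 (tristetraprolin) was at 65.3 to 74.4 CPM before and 67.9 to 79.6 CPM after. Over 35 genes of mRNA decay 5 (14.3%) rose and 3 (8.57%) fell, near the shares of all tested genes. Under library size scaling 4 rose and 4 fell. The stress genes Gadd45b and Plk2 rose by 3.87 (SE 0.32) and 2.59 (SE 0.29), and Gadd45g fell by 3.07 (SE 0.66). Of the 19 genes of their list 3 rose and 4 fell.

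Antigen presentation and costimulation rose in part. Of 16 tested MHC class I and peptide loading genes 10 rose and none fell, with a median of 1.29. Under library size scaling 7 passed, with a median of 0.91. The peptide transporter Tap1 went from 126, 131 and 146 CPM to 451, 506 and 409 CPM. The most abundant members had smaller changes, with B2m at 1768 to 1820 CPM before and 2317 to 2476 CPM after, and H2-D1 at 1507 to 1642 CPM before and 2359 to 2420 CPM after. These MHC class I genes are near-identical copies in part, and read pairs that map to several were not counted. Of 20 costimulatory and checkpoint ligands 12 rose and 3 fell. Cd40 rose from 20.9, 21.6 and 21.6 CPM to 652, 880.4 and 682 CPM (log2 change 5.11, SE 0.64, adjusted p = 1.51e-05). Cd274 (PD-L1) rose from 278, 294 and 287 CPM to 1459, 1486 and 1423 CPM. The inhibitory receptors Cd200r1 and Vsir (VISTA) had log2 changes of -1.66 (SE 0.14) and -2.02 (SE 0.17), while Cd200, the ligand of Cd200r1, rose by 3.58 (SE 0.58). Of 17 MHC class II genes 2 rose and 1 fell (1 and 2 under library size scaling), and the invariant chain Cd74 was at 9397 to 10100 CPM before and 11420 to 14170 CPM after.

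Of 46 tested TRIM ubiquitin ligases 12 rose and 6 fell, against 10 and 12 under library size scaling. The rises were led by the Trim30 cluster, with Trim30c going from 3.69, 3.23 and 3.71 CPM to 108, 133 and 104 CPM (log2 change 5.02, SE 0.92). Members of this cluster are near copies of each other, and their separate values are uncertain. Trim25, the activator of the RNA sensor RIG-I, rose from 125, 126 and 123 CPM to 624, 660.1 and 606 CPM.

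Of 26 tested BCL2 family and caspase inhibitor genes 11 rose and 1 fell (9 and 3 under library size scaling), with a median of 0.73. Cflar (cFLIP), which blocks caspase-8, went from 129.6, 127 and 128 CPM to 1296, 1315 and 1379 CPM (log2 change 3.37, SE 0.24). Bcl2a1d, a prosurvival BCL2 relative of a multicopy cluster, rose by 1.47 (SE 0.15). The proapoptotic BH3 genes moved in both directions, with log2 changes of 2.69 (SE 0.16) for Bcl2l11 (BIM) and -2.77 (SE 0.71) for Bmf. Casp9, the initiator caspase of the mitochondrial route, fell from 56, 54.5 and 51.5 CPM to 15.7, 15.7 and 15.4 CPM. Casp4 (caspase-11) and Nlrp3, sensors of the inflammasome pathways, rose by 2.60 (SE 0.24) and 1.68 (SE 0.17).

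Of 15 tested TNF superfamily ligands 8 rose and none fell, with Tnfsf15 (TL1A) going from 76.3, 79.2 and 94.9 CPM to 3390, 3181 and 3380 CPM and Tnf from 94.1, 94.5 and 133 CPM to 2611, 2143 and 2265 CPM. Of 28 growth factor genes 15 rose and 3 fell. Inhba, the activin A subunit, went from between 244 and 276 CPM to 2464, 1813 and 2114 CPM. Inhbb, the other activin subunit, had no count in the 3 unstimulated libraries and a mean of 1.12 CPM after LPS, at least 19.9-fold higher than the floor of 3 counts per library. Vegfa, the angiogenic factor, fell by 1.68 (SE 0.25), and Pdgfa went from 40.5, 40.6 and 49.3 CPM to 16.8, 15 and 14.2 CPM.

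Activators of plasminogen moved in opposite directions. Plau (urokinase) fell from 360.1, 344 and 381 CPM to 71.7, 58.8 and 82.2 CPM, a log2 change of -2.35 (SE 0.49). Plat, the tissue activator, was at 0, 0 and 0.124 CPM before LPS and at 29.4, 37.5 and 22.9 CPM after. The inhibitor Serpinb2 (PAI-2) rose by 4.44 (SE 0.51) on the log2 scale, from 14.7, 14.2 and 17.6 CPM to 422, 294 and 292 CPM. In the whole list of coagulation, plasminogen and serpin genes 9 rose and 1 fell of 23. Among 37 matrix metalloproteinase and ADAMTS genes 10 rose and 2 fell (9 and 6 under library size scaling), and the abundant elastase Mmp12 was at 14550 to 15310 CPM before and 13950 to 17170 CPM after. The Notch ligands Dll1 and Dll4 rose from below 0.3 CPM, Dll1 to 16.7, 18.6 and 13.2 CPM and Dll4 to 6.17, 10.2 and 6.28 CPM, while the Notch modifiers Lfng and Mfng had log2 changes of -1.84 (SE 0.18) and -1.75 (SE 0.21). The ligand Jag2 was called lower (-1.45), a call lost without WT LPS DMSO replicate 1 or WT unstimulated replicate 2. Of 17 Notch genes 3 rose and 4 fell.

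Among genes of adhesion and cell shape, calls went in both directions. Among integrins 3 rose and 1 fell of 20. Itgb8, whose protein with αv activates latent TGF-β, rose from 2.87, 2.38 and 2.39 CPM to 131, 137 and 107 CPM, and its partner Itgav rose by 2.34 (SE 0.14). Tgfbr1, the signalling receptor for TGF-β, fell from 409.5, 400.5 and 370.4 CPM to 70.5, 76.6 and 95 CPM. Synpo, an actin-bundling protein, fell by 3.81 (SE 0.26).

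Receptor genes moved in both directions. Of 73 tested G protein-coupled receptors outside the chemoattractant group 8 rose and 19 (26%) fell. Cnr2, the cannabinoid receptor of immune cells, fell from 38.2, 40.7 and 36.2 CPM to 0.441, 0.537 and 0.635 CPM, a log2 change of -6.15 (SE 0.78, adjusted p = 1.67e-05). Lpar6, a lysophosphatidic acid receptor, fell from 28.7, 27.7 and 26.6 CPM to 1.74, 1.33 and 1.04 CPM. Among 21 chemoattractant receptors 9 rose and 5 fell. Ccrl2, a decoy receptor that presents chemerin, rose from 5.19, 5.97 and 7.44 CPM to 323, 285 and 329 CPM, and Cmklr1, the signalling receptor for chemerin, fell from 151, 153 and 148 CPM to 35.5, 30.6 and 41.3 CPM. Ccr7, the lymph node homing receptor, rose by 3.11 (SE 0.49), and Cxcr4, which retains cells in the marrow, fell by 2.35 (SE 0.20). Of 42 cytokine receptor genes 10 rose and 5 fell, which became 9 and 11 under library size scaling. Both chains of the IL-6 receptor fell, Il6ra from 37, 37.6 and 35.4 CPM to 2.81, 2.87 and 4.04 CPM and Il6st with a log2 change of -1.72 (SE 0.11), and Il15ra rose by 4.02 (SE 0.47).

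Of 14 genes of arginine, nitric oxide and itaconate metabolism 5 rose and none fell. Nos2, the inducible nitric oxide synthase, went from 1.31, 1.05 and 1.18 CPM to 350.5, 386 and 281 CPM (log2 change 8.17, SE 1.62, adjusted p = 0.000838). Acod1, which makes itaconate, went from 319, 324 and 394 CPM to 5216, 4577 and 4755 CPM, and the arginine importer Slc7a2 from 434, 438 and 478 CPM to 2688, 2628 and 2728 CPM. Ptgs2 (COX-2), the inducible prostaglandin synthase, rose from 0.992, 0.964 and 1.09 CPM to 752, 683 and 558 CPM, while the constitutive Ptgs1 fell by 1.06 (SE 0.10). Of 31 genes of glycolysis and glucose uptake 2 rose and 3 fell (1 and 5 under library size scaling). The lysosomal hexose transporter relative Slc2a6 rose by 1.91 (SE 0.14), and the abundant enzyme Pkm was at 1746 to 1897 CPM before and 1605 to 1797 CPM after.

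Of 29 genes of fatty acid and triglyceride synthesis 2 rose and 7 fell (1 and 11 under library size scaling), with a median of -0.37. Lpin1, a phosphatidate phosphatase, fell from 42.4, 44 and 40.7 CPM to 2.76, 3.58 and 4.27 CPM, and Scd2, a stearoyl-CoA desaturase, from 868, 855 and 809 CPM to 146, 128 and 178 CPM. Acsl1, which activates fatty acids, rose from 178, 176 and 185 CPM to 1057, 963 and 958 CPM. None of 25 cholesterol synthesis and uptake genes rose and 4 fell, and 9 fell under library size scaling. In iron handling, Hamp (hepcidin), the hormone that closes the iron exporter, rose from at most 0.102 CPM to 3.78, 7.42 and 6.38 CPM. The antioxidant adaptor Sqstm1 (p62) rose by 1.87 (SE 0.17) and the growth inhibitor Osgin1 fell by 3.40 (SE 0.59).

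Ccng2, an atypical cyclin of arrested cells, rose from 24.9, 24.6 and 22.5 CPM to 258, 272 and 245 CPM, a log2 change of 3.43 (SE 0.10, adjusted p = 3.7e-12). Of the D-type cyclins, Ccnd2 rose by 2.67 (SE 0.38) and Ccnd1 fell by 1.82 (SE 0.10). The inhibitors Cdkn1a (p21) and Cdkn1b (p27) rose by 1.64 (SE 0.20) and 2.11 (SE 0.31). Of 39 genes of DNA replication and mitosis 3 rose and 6 fell (1 and 11 under library size scaling). The proliferation marker Mki67 was among the rises, at 71.8, 79.3 and 80.2 CPM before and 239.7, 306 and 349 CPM after, while Kif23 and Cenpf, genes of cell division, had log2 changes of -1.83 (SE 0.29) and -1.68 (SE 0.42). Of 56 DNA repair genes 3 rose and 15 (26.8%) fell, with a median of -0.44. The uracil glycosylase Ung fell from 5.43, 5.58 and 4.8 CPM to 0.974, 1.38 and 1.6 CPM, while the checkpoint kinase Atm rose by 1.64 (SE 0.17). None of 47 ribosome biogenesis genes rose and 5 fell (12 under library size scaling). The share that fell, 10.6%, was near the 9.71% of all tested genes. The largest fall was that of Rrp1b (log2 change -1.91, SE 0.18).

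Several large housekeeping lists had no called gene in edgeR's test. They were the 77 nuclear genes of oxidative phosphorylation, 80 cytosolic ribosomal protein genes, 42 lysosomal hydrolase and membrane genes, 27 genes of the TCA cycle, 23 of fatty acid oxidation and the 13 mitochondrially encoded mRNAs. At an unadjusted p below 0.05 were 5, 8, 12, 5, 11 and 9 of them in that order. DESeq2 called 1 of the lysosomal genes and none of the others, and limma-voom called none. Under library size scaling 1, 2, 3, 0, 2 and 0 of them were called lower, and none higher. The values of the nuclear oxidative phosphorylation genes ranged from -0.74 to 0.83, and the abundant ATP synthase gene Atp5b was at 1081 to 1110 CPM before and 1178 to 1344 CPM after. The mitochondrially encoded mRNAs had a median of 0.57, with mt-Co1 at 2466, 2365 and 2775 CPM before and 3761, 4465 and 3326 CPM after LPS.

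**Figure D4:**
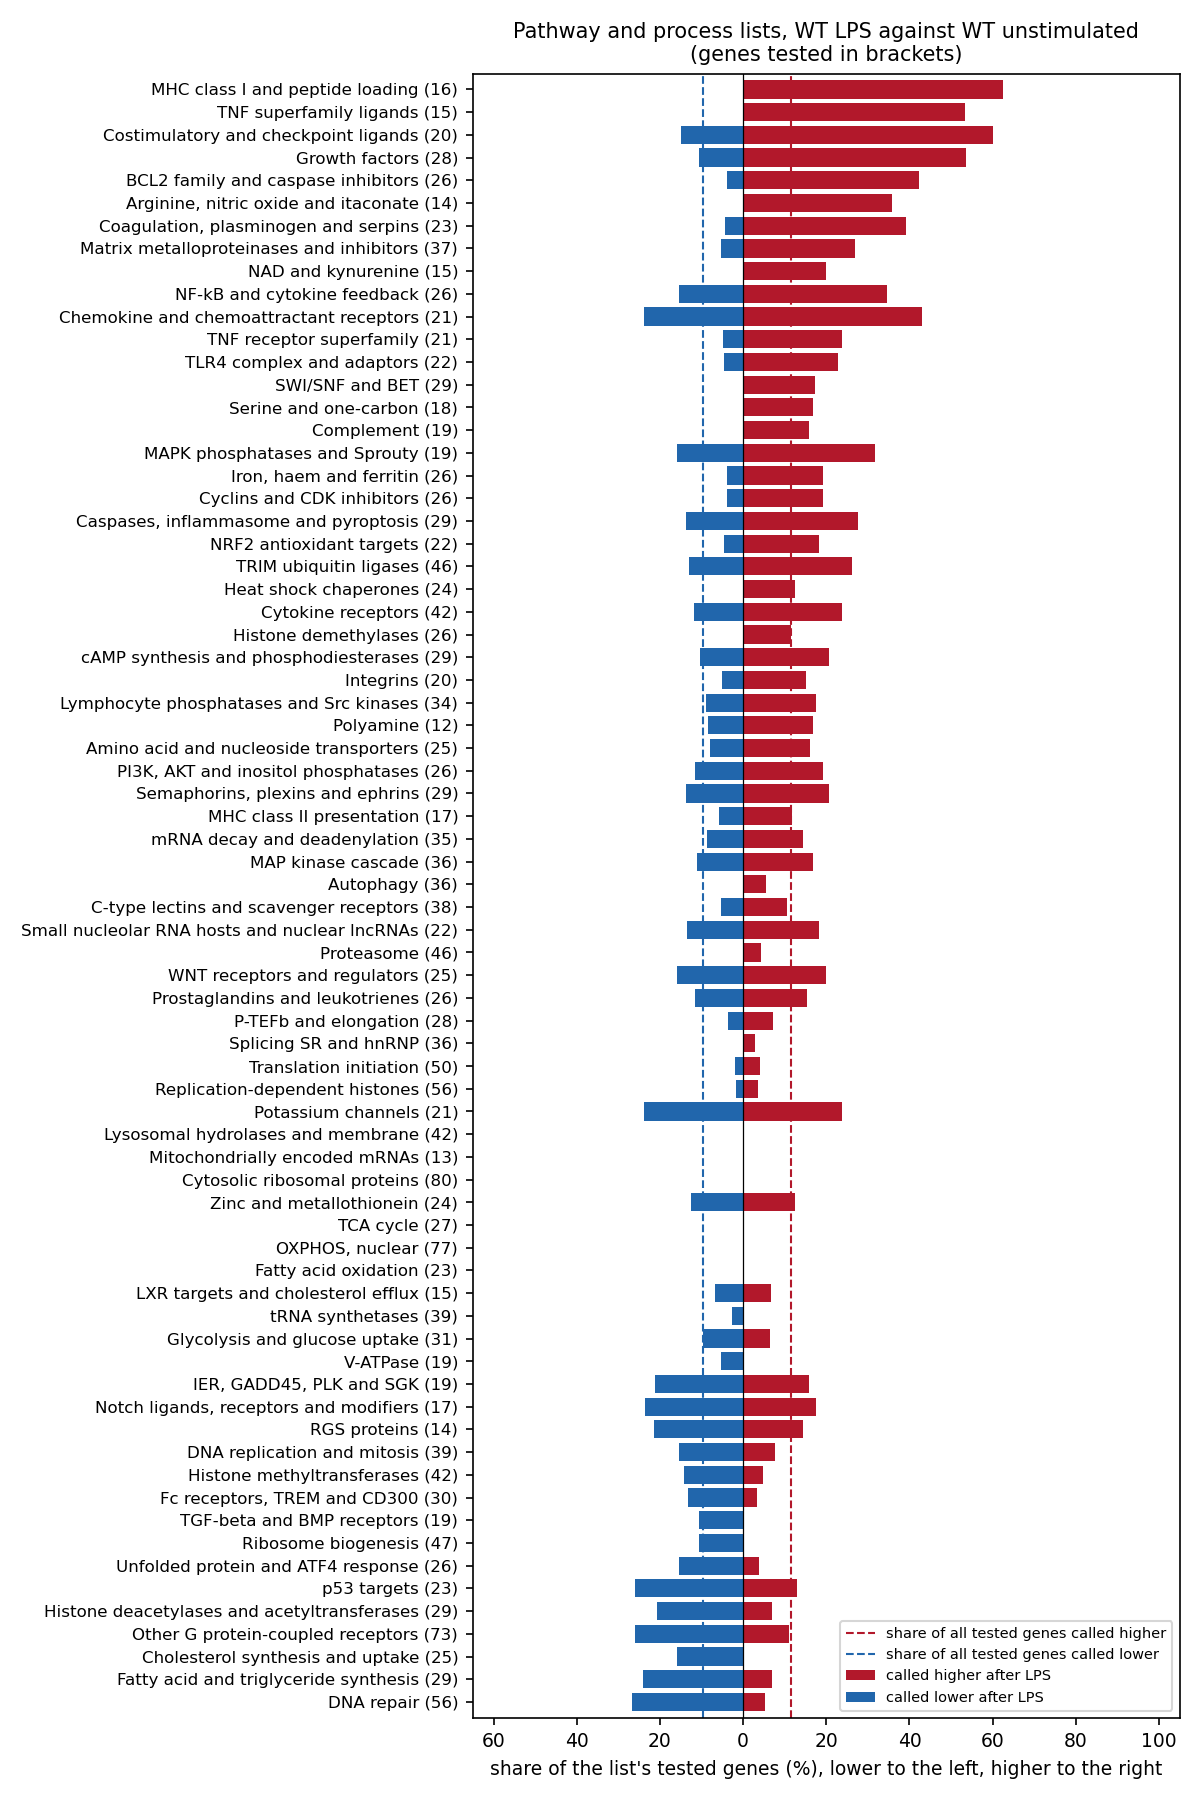
Share of each pathway list's tested genes called higher (red, to the right) or lower (blue, to the left) after LPS, in percent, for the lists shown, each with at least 10 tested genes (number in brackets), with the shares over all tested genes as dashed lines (11.6% and 9.71%). Lists are ordered by the share higher less the share lower, with MHC class I (10 of 16 higher) at the top and DNA repair (15 of 56 lower) at the bottom, while oxidative phosphorylation and ribosomal protein lists have no bar.

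Of the noncoding transcripts in the lists, Mir155hg, the host gene of miR-155, rose from 9.76, 10.2 and 14 CPM to 140.2, 174 and 98.7 CPM (log2 change 3.60, SE 0.60). The mature miRNA was not measured by this assay. The histamine-forming enzyme Hdc, listed as a mast cell and basophil marker, rose from 0.655, 0.389 and 0.619 CPM to 31.9, 42.5 and 31.9 CPM, and Cpa3, another marker of the list, had a log2 change of 1.73 (SE 0.50) and stayed below 1 CPM, a call lost without WT LPS DMSO replicate 3 (1.35) or WT unstimulated replicate 2 (1.56). The mast cell and basophil genes Mcpt1, Mcpt8 and Prss34 did not pass and stayed below 0.6 CPM in every library.

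The same contrast in IRF5 KO cells shares none of these libraries. An interaction term comparing the 2 responses passed the same thresholds for 1539 genes (9.83% of those tested). The term, the WT change less the KO change, was positive for 992 genes and negative for 547. Its sign alone does not show which response was the larger. Of the 708 tested transcription factor genes 97 (13.7%) were among the 1539. Without IRF5 KO LPS DMSO replicate 3, which stood apart from its group, 3778 genes were called. Among the factors described above, Irf1 (interaction 3.05 on the log2 scale), Stat5a (2.09), Foxp1 (2.29), Myc (-2.98) and Id3 (-5.80) were called in this test, and Nfkbiz (-0.23) and Nfkbia (0.24) were not.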

How the data were processed

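RNA was isolated with a column kit and made into libraries by a standard Illumina procedure, per the labels. Per the study's methods, read pairs were aligned with STAR to mm10 and assigned to exons with featureCounts 1.6.3, which the header of the table names, with reverse strand counting. The deposited values are raw counts per gene as the authors made them. Of 50600 gene IDs, 50376 were matched to a GENCODE vM21 symbol and 15663 passed edgeR's filterByExpr.

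From these counts edgeR 4.0.16 (R 4.3.3) fitted a quasi-likelihood model with TMM factors and 1 mean for each of 6 groups over all 18 libraries. A gene was called at a Benjamini-Hochberg adjusted p below 0.05 and a change of over 2-fold. CPM are counts scaled to the TMM-adjusted library size, SE is the log2 change over the root of its F, and the Poisson error of the counts sets the precision of low genes. The floor for genes with no count was 3 counts per library. limma 3.58.1 and DESeq2 1.42.0 gave alternatives. The interaction compared the WT response with that of IRF5 KO cells. The script was tested on simulated data.

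Genes were named by rule: the 12 largest rises and falls over all genes (mean log2 CPM of at least 3), the 20 largest over transcription factors (at least 1), and per list up to 4 called in each direction and the 2 with the highest level, with Irf5, Ptk2b, Tnf and Il6. The NF-κB family, Fos, Jun and the marker genes were added after their values were seen. The lists and the comparison were chosen with earlier results of these data known. Replicates are labelled biological, with separate mice not stated, so p-values measure the spread between these samples. Same-numbered WT libraries did not deviate together (Pearson r across genes of 0.005, 0.02 and 0.001). Promoter sequences are RefSeq's for GRCm38.p6, and 10663 tested genes had an entry. A few named genes and gene groups are not reported here.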

Additional observations from a re-analysis of the deposited data

Results flagged for a closer look

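The LPS response differed between WT and IRF5 KO cells, by a test of the difference itself in edgeR, for 1539 genes (9.83% of those tested), among them 97 of 708 tested transcription factor genes (13.7%).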

How the results depend on the processing

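The number of called genes was within 1.5 times of 3340 in most settings and moved in these: 2143 (1140 higher, 1003 lower) with at least 5 CPM in 3 libraries, 1584 (994 and 590) with glmTreat, which tests against the 2-fold limit, and 6553 (3228 and 3325) with no fold threshold. Scaling by library size alone gave 2834 lower genes. Leaving out 1 library at a time gave 3061 to 3699 called, 1670 to 2013 higher and 1385 to 1686 lower genes. For the interaction, glmTreat gave 108, no fold threshold 2681, and leaving out 1 library 1068 to 3778, the last without IRF5 KO LPS DMSO replicate 3. With the replicate number as a block, a pairing the libraries do not show, 3327 genes were called (1813 higher, 1514 lower) and the interaction was called for 1654. Beyond what the settings' construction shows, the cause was not tested. Of 527 called genes that the naming rule gave, the call ended for 187 with glmTreat, 59 with library size alone, 61 on leaving out 1 library, 24 with no filter, 9 with limma-voom and 6 with DESeq2, and 0 changed sign. Depth limits genes near 3 counts per library.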
